A study of Mus musculus with 12 samples.

Results

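The mRNAs described here encode splicing factors, RNA helicases, RNA-binding proteins, factors of 3′ end formation and decay, and translation initiation factors. They carried 15 peaks of N6-methyladenosine (m6A) in 14 genes, out of 1233 peaks in 1108 genes that the authors listed as differing between Mettl3-deficient and control mouse islets. Members were picked by a rule on the gene symbol, chosen with earlier results of these data known. It took symbols beginning with Srs, Srrm, Hnrnp, Rbm, Ddx, Dhx, Snrn, Sf3, Prpf, Clk, Ccnl, Luc7l, Cpsf, Cnot, Celf, Tnrc6, Pabp, Upf or Eif, or with Pum and a digit. Rbm15, Rbmx, Hnrnpc and Hnrnpab were left out by the rule. The genes found were Ccnl2, Srsf5, Rbm4b (with 2 overlapping peaks), Rbm12, Rbm27, Sf3b2, Ddx20, Ddx19b, Ddx3x, Cpsf2, Cnot2, Tnrc6a, Eif4g3 and Eif5. In the authors' list 13 of the peaks, in 12 genes, were lower in knockout islets (92.9% of all listed peaks), and the 2 peaks in Eif4g3 and Sf3b2 were higher (7.14%).

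The tested animals were β-Mettl3-KO mice, Mettl3 flox/flox with RIP-Cre, in which Cre recombinase is driven by the rat insulin promoter. The controls were Mettl3 flox/flox mice, which carry the same floxed allele. All were C57BL/6 mice on normal chow, studied at 8 weeks of age. Islet RNA of 12 knockout and 9 control mice was pooled into 3 pools per genotype, so each value below stands for a pool and not for an animal. RNA fragments of about 100 nt were sequenced before (input) and after immunoprecipitation with an anti-m6A antibody (IP), giving 12 libraries. Whole islets were used, so islet cells that do not express insulin were not targeted.

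METTL3 is the enzyme of the writer complex that adds m6A to nascent mRNA, at adenosines within the motif known as DRACH. The mark is known to be dense near stop codons and in long exons, and reader proteins that bind it affect splicing, export, translation and decay of the RNA. Many factors that carry out those same steps are encoded by mRNAs that are themselves methylated. In the islet, β-cells depend on such factors for heavy secretory protein synthesis.

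The libraries held between 17082320 and 18253329 total reads in knockout IP, 18284420 and 20937525 in knockout input, 18400670 and 22257803 in control IP, and 16832779 and 19404774 in control input. The 15 peaks took 10863, 8449 and 9614 reads in the knockout IP libraries, against 9901, 19012 and 18027 in the control IP libraries. Control pool 1 thus stood near the knockout pools and apart from the other control pools. No listed peak lies in Mettl3, so its loss could not be checked here. Of 45 marker genes of islet cell types, 12 had a listed peak. The 3 listed β-cell markers (Mafa, Nkx6-1 and Ucn3, of a list of 8) summed to 158.1 to 220.2 RPM (reads scaled by the total of the library) in knockout input, against 363.0 to 419.6 in control input. Most of this difference lay in 1 Mafa peak, with 15.64 to 48.95 RPM in knockout and 160.1 to 192.6 RPM in control input. Its input log2 change was -2.51 (edgeR adjusted p = 2e-18). Input of Ucn3 and Nkx6-1 did not pass (log2 change -0.35 and -0.40). No peak of Ins1 or Ins2 was listed. The 4 listed endothelial markers, of a list of 7, summed to 42.39 to 84.19 RPM in knockout input, against 77.76 to 84.62 in control input. Enrichment rose by edgeR's test at peaks of Plvap, Eng and 1 of those of Podxl (log2 change 0.87, 0.97 and 1.03) and of the stromal marker Col4a2 (1.26). It fell at peaks of the ductal marker Cldn4 (-1.13) and 1 of those of Frzb, a marker of delta and PP cells (-1.72). Ucn3 and Nkx6-1 also fell (-0.93 and -0.82), and the other listed marker peaks did not pass. None of the acinar or alpha-cell markers was listed. The part of these markers in the changes below was not tested. In bulk RNA, fewer cells of a type and less RNA per cell cannot be told apart.

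The sequences below show, for 12 of the genes, the 25 nt around the DRACH match closest to the middle of the peak, as a candidate place of the mark in each. They were read 5′ to 3′ on the strand of the gene from the GENCODE M21 transcripts (GRCm38), written with T. Capitals mark the match to DRACH, in which D stands for any base but C, R for a purine and H for any base but G. A match is a description and not a mapped site, since the peaks are far longer than the motif.
Ccnl2: ccatgcatctGAACTgcacccaagg
Srsf5: ccagatcagtTGACAgtggcaatta
Rbm4b: tacgcagagcAGACCatgtctcatc
Sf3b2: gctttcaagcTAACTgatgatgtga
Ddx20: tctctctctgGAACAagttcagaat
Ddx19b: ttttttttttGGACAgtattttccc
Ddx3x: cccagggggtTGACTggtggggtaa
Cpsf2: aatgtaaataGAACCtattttgtaa
Cnot2: tatgaaaatgGGACAttctggaact
Tnrc6a: gtcctgcacaGAACActggcactgg
Eif4g3: cgtctgagagAGACCcctctgccct
Eif5: gggttgttagGAACTgaaaacttga

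The first question was whether m6A enrichment, IP RPM over input RPM of the same pool, was lower in knockout pools than in control pools. By edgeR's quasi-likelihood test over all 1233 peaks, with each library scaled by its deposited total and a Benjamini-Hochberg adjusted p under 0.05, enrichment fell at 10 of the 15 peaks, in 9 genes, and rose at 0. Of all listed peaks 55.6% fell by the same rule, so the members' share lies near the background, and 2.27% rose. At the count of 0, no peak was higher at an unadjusted p under 0.05 either, and DESeq2 with the same totals also called 0, while TMM scaling over the listed peaks called 1 rise and DESeq2 with its own size factors 2. The count of falls was 2 without knockout pool 2, 1 without knockout pool 3, 4 without control pool 2 and 2 without control pool 3. The median log2 change was -1.08 over the 15 peaks and -1.02 over all listed peaks. These calls rest on the scaling: with TMM the median of all listed peaks moved to -0.07, that of the 15 peaks to -0.10, and 0 of the 15 peaks passed as lower. The authors selected the peaks for a difference on these same libraries, so the tests set the change against the spread of the pools and give no independent evidence of its direction.

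Over the 15 peaks the median enrichment was 4.52, 3.33 and 2.64 in the knockout pools, against 5.90, 9.26 and 11.3 in the control pools. All listed peaks gave 4.48, 3.44 and 3.43 in knockout pools, against 5.23, 8.09 and 9.27 in control pools, the same order of pools in the controls. All 3 knockout pools lay below all 3 control pools at 8 of the 15 peaks (53.5% of all listed peaks) and above them at 2 (3.00%).

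**Figure D1:**
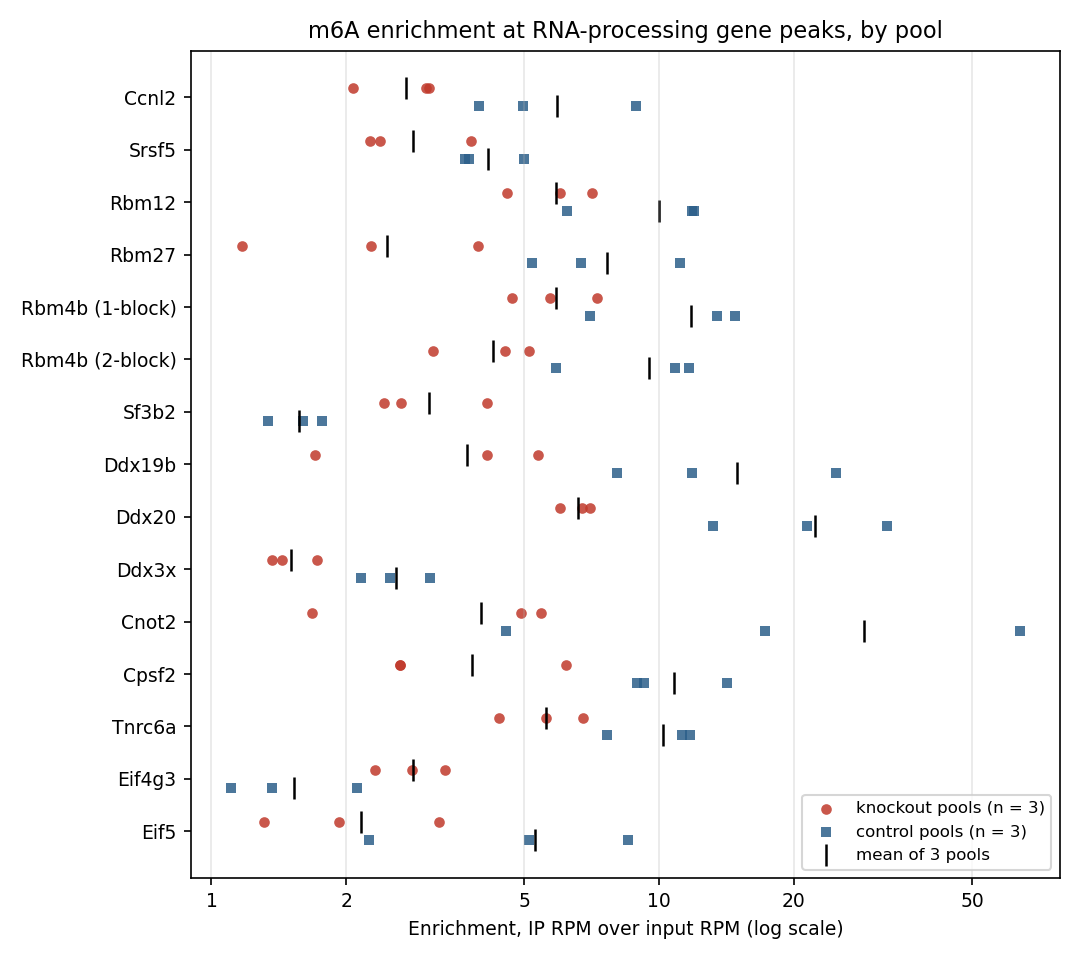
m6A enrichment (IP RPM over input RPM, log axis) of each of the 15 peaks in 3 knockout pools (circles) and 3 control pools (squares), with the mean of each as a vertical bar. Knockout pools lie below all control pools at 8 peaks, above them in Sf3b2 and Eif4g3, and overlap them at 5.

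Among the SR proteins and their cyclin partners, enrichment fell in Ccnl2 and did not pass in Srsf5. Ccnl2 encodes cyclin L2, a partner of the CDK11 kinases that acts in splicing. Its peak lies at chr4:155819619-155820009 (plus strand, GRCm38) in an exon of 1890 nt of a retained-intron transcript, and 0 nt of it lie in exons of protein-coding transcripts of the gene. IP over input was 3.01, 2.07 and 3.06 in knockout pools, against 3.95, 4.96 and 8.86 in control pools. Every knockout pool lay below every control pool, with a mean of 2.71 ± 0.558 in knockout and 5.92 ± 2.59 in control pools (SD, n = 3 each) and a log2 change of -1.08 (SE 0.42, edgeR adjusted p = 0.026). The call was lost without knockout pool 2 or 3 or control pool 2 or 3, where the log2 change ran between -1.29 and -0.72 over the 6 fits that leave out 1 pool.

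Srsf5, an SR protein that binds exonic splicing enhancers, has its peak at chr12:80949758-80950147 (plus strand) across the stop codon, with the midpoint 23 nt before the last coding base (-23). The printed match TGACA lies in coding sequence just before its end. Enrichment was 2.38, 2.26 and 3.80 in knockout pools, against 3.77, 5.0 and 3.69 in control pools. The groups overlapped through knockout pool 3, and the log2 change of -0.60 (SE 0.42, edgeR adjusted p = 0.17) did not pass and was 0.35 with TMM. Its differential log2 fold change in the authors' deposited table, -0.663, was the smallest in size among the 15 peaks. The sequence is not unique to the gene: 29.0% of the 50-mers of the peak also occur in the pseudogene Gm12966, so its counts are uncertain.

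The RNA-binding proteins of the Rbm group gave 4 peaks, of which 3 fell (55.6% of all listed peaks). Their median log2 change was -1.12, against -1.02 over all listed peaks, and 2 of the 3 falls were in Rbm4b. Rbm4b, a regulator of alternative splicing with a close paralogue in Rbm4, carried 2 overlapping peaks at chr19:4761293-4762736 (2 blocks) and chr19:4761936-4762716 (1 block). Both are on the plus strand and lie mostly in the final exon, around the stop codon. Of their 810 nt and 781 nt, 760 nt and 740 nt lie in exons of protein-coding transcripts of the gene. The other block of the 2-block peak, of 50 nt, lies upstream of that exon. They share most of their reads and are not separate observations. The 2-block peak had an enrichment of 4.52, 3.13 and 5.12 in knockout pools, against 5.90, 10.9 and 11.7 in control pools. No pools overlapped there, and the log2 change was -1.20 (SE 0.40, edgeR adjusted p = 0.012). For the 1-block peak the values were 5.69, 4.70 and 7.26 in knockout pools, against 7.02, 13.5 and 14.8 in control pools. Here knockout pool 3 lay above control pool 1, and the log2 change was -1.03 (SE 0.40, edgeR adjusted p = 0.027). An antisense gene, Gm37206, overlaps 634 nt and 614 nt of these peaks, and since strand-specific counting is not stated, reads of both genes cannot be told apart. Both calls were lost without knockout pool 2 or 3 or control pool 2 or 3, that of the 1-block peak also without knockout pool 1, with log2 changes between -1.46 and -0.99 and between -1.31 and -0.82. With each pool as a block, the 1-block peak no longer passed (log2 change -0.95, edgeR adjusted p = 0.051).

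Rbm27 encodes a zinc-finger RNA-binding protein tied in human cells to RNA decay by the nuclear exosome. Its peak lies in the 3′UTR at chr18:42338432-42338820 (plus strand), centred 154 nt after the last coding base. Enrichment was 3.94, 1.17 and 2.27 in knockout pools, against 6.68, 5.21 and 11.1 in control pools. Its knockout pools were all below the control pools, and knockout pool 2 was nearly without enrichment. The log2 change was -1.78 (SE 0.61, edgeR adjusted p = 0.015). That call was lost without knockout pool 2 or 3 or control pool 3 (log2 change -2.15 to -1.26 over the 6 fits). The counts are thin, with 29, 87 and 47 input reads in knockout pools, against 17, 43 and 17 in control pools.

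Rbm12, a protein with several RNA recognition motifs, had a long peak of 1980 nt at chr2:156096457-156103412 (minus strand), almost all of it in the last exon of 6415 nt, with the midpoint in coding sequence. Enrichment was 7.08, 6.00 and 4.57 in knockout pools, against 6.21, 11.96 and 11.87 in control pools. Knockout pool 1 lay above control pool 1, so the groups overlapped. The log2 change of -0.79 (SE 0.38, edgeR adjusted p = 0.058) did not pass, was 0.19 with TMM, and DESeq2 with the same totals called it. All of its 50-mers (100%) also occur in the read-through gene Gm28036, and Cpne1 overlaps 207 nt of the peak, so the reads cannot be assigned to Rbm12 alone.

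Sf3b2, a subunit of the SF3b part of the U2 snRNP, was the only listed spliceosome particle gene by the rule, and one of the pair of peaks listed as higher. Its peak, chr19:5286854-5287124 (minus strand), spans 2 blocks of 95 nt and 56 nt, with its midpoint in internal coding exon 10 of 21, which is 138 nt long. Enrichment was 2.65, 4.12 and 2.43 in knockout pools, against 1.76, 1.34 and 1.603 in control pools. All knockout pools lay above all control pools, with a mean of 3.07 ± 0.921 in knockout and 1.57 ± 0.215 in control pools (SD, n = 3 each), but the log2 change of 0.88 (SE 0.50, edgeR adjusted p = 0.10) did not pass. It was 1.72 with TMM, where it did not pass either, and 1.74 with DESeq2's own size factors, where it passed (adjusted p = 0.036). Relative to the median of all listed peaks it stood 1.90 higher on the log2 scale. In control pools this peak was close to the input level.

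The RNA helicases gave the peaks with the smallest p, and 2 of the 3 fell (55.6% of all listed peaks). Ddx20 encodes Gemin3, a helicase of the SMN complex that assembles spliceosomal snRNPs. Its peak lies at chr3:105678300-105679521 (minus strand) in the last exon and covers the stop codon. Enrichment was 7.01, 6.00 and 6.71 in knockout pools, against 13.2, 32.3 and 21.4 in control pools. The knockout pools were close together and well below every control pool, with a mean of 6.57 ± 0.517 in knockout and 22.3 ± 9.55 in control pools (SD, n = 3 each). The input held 69, 77 and 67 reads in knockout pools, against 29, 29 and 35 in control pools. The log2 change was -1.75 (SE 0.46, edgeR adjusted p = 0.0028). Of the 15 peaks this one alone kept its enrichment call in all 6 fits that leave out 1 pool, with log2 changes between -1.98 and -1.45 and an adjusted p of at most 0.047.

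Ddx19b encodes a helicase that releases mRNA at the nuclear pore during export. Its peak lies at chr8:111007652-111008281 (minus strand) in the 3′UTR, centred 286 nt after the last coding base. Enrichment was 5.37, 4.12 and 1.70 in knockout pools, against 8.07, 11.8 and 24.9 in control pools. No pools overlapped, and knockout pool 3 and control pool 3 were the extremes. The input held 53, 53 and 95 reads in knockout pools, against 37, 47 and 17 in control pools, so the value of 24.9 rests on 17 input reads. The log2 change of -1.97 (SE 0.50, edgeR adjusted p = 0.0024) was the largest fall among the 15 peaks and lay at -0.95 relative to the median of all listed peaks. It was lost without knockout pool 3 (log2 change -1.42, edgeR adjusted p = 0.070). Ddx19a shares 23.8% of the 50-mers of this peak, so counts may be split between the paralogues.

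Ddx3x, an X-linked helicase of translation initiation, has its peak at chrX:13291184-13291654 (plus strand) over the stop codon, centred 15 nt before the last coding base (-15). Enrichment was 1.72, 1.36 and 1.44 in knockout pools, against 2.16, 3.08 and 2.50 in control pools. All knockout pools were lower and the level was low in both groups. The log2 change was -0.76 (SE 0.42, edgeR adjusted p = 0.092), which did not pass and was 0.16 with TMM. DESeq2 with the same totals called it (adjusted p = 0.028).

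All 3 factors of 3′ end formation, deadenylation and silencing fell (55.6% of all listed peaks), with a median log2 change of -1.56 against -1.02 over all listed peaks, and none passed with TMM (-0.60 in Cpsf2, -0.87 in Cnot2 and 0.05 in Tnrc6a). Cpsf2, a subunit of the cleavage and polyadenylation specificity factor, has its peak at chr12:102002715-102003827 (plus strand) with the midpoint 236 nt into the 3′UTR. Enrichment was 6.21, 2.63 and 2.64 in knockout pools, against 8.94, 9.26 and 14.2 in control pools. The groups did not overlap, with knockout pool 1 nearest the controls, and the log2 change was -1.56 (SE 0.51, edgeR adjusted p = 0.012). Its call was lost without knockout pool 2 or 3 or control pool 3 (log2 change -1.99 to -1.33 over the 6 fits).

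Cnot2, a subunit of the CCR4-NOT deadenylase, has its peak at chr10:116485221-116485580 (minus strand) in the 3′UTR, centred 802 nt after the last coding base. This was the farthest downstream of the 14 peaks in coding transcripts. Enrichment was 5.45, 4.903 and 1.68 in knockout pools, against 4.55, 17.3 and 64.1 in control pools. Control pool 1 lay inside the knockout range, and the value of 64.1 rests on 3 input reads. The input held 35, 27 and 55 reads in knockout pools, against 33, 17 and 3 in control pools. The log2 change was -1.79 (SE 0.61, edgeR adjusted p = 0.015). It was lost without knockout pool 2 or 3 or control pool 2 or 3, and the fits that leave out 1 pool gave -2.79 to -1.21, the widest range among the 15 peaks.

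Tnrc6a encodes GW182, the scaffold that joins Argonaute proteins to deadenylases in microRNA silencing. Its peak of 2458 nt at chr7:123169510-123171967 (plus strand) fills most of an internal coding exon of 2583 nt. Enrichment was 6.75, 5.58 and 4.40 in knockout pools, against 7.63, 11.7 and 11.3 in control pools. No pools overlapped, though knockout pool 1 and control pool 1 were close. The log2 change was -0.90 (SE 0.39, edgeR adjusted p = 0.039), and it did not pass with each pool as a block (-0.87, edgeR adjusted p = 0.057). Without knockout pool 2 or 3 or control pool 2 or 3 the call was lost (log2 change -1.07 to -0.73 over the 6 fits). The authors' own fold enrichment, 84.3 in the deposited table, was the highest of the 15 peaks.

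Of the 2 translation initiation factors, enrichment fell in Eif5, and in Eif4g3 it was higher in every knockout pool without passing the test. Eif5, which activates GTP hydrolysis by eIF2 when the start codon is found, has its peak at chr12:111544838-111545167 (plus strand), centred 387 nt into the 3′UTR. Enrichment was 3.23, 1.93 and 1.31 in knockout pools, against 2.24, 8.51 and 5.11 in control pools. Knockout pool 1 lay above control pool 1, and the log2 change was -1.25 (SE 0.42, edgeR adjusted p = 0.014). The call was lost without knockout pool 2 or 3 or control pool 2 or 3 (log2 change -1.71 to -0.84 over the 6 fits).

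Eif4g3 encodes an eIF4G scaffold that joins the cap-binding protein to the small ribosomal subunit, and its peak was listed as higher. It lies at chr4:138146336-138151813 (plus strand) in 2 blocks of 38 nt and 232 nt, with its midpoint in internal coding exon 14 of 35, which is 247 nt long. Enrichment was 2.81, 3.33 and 2.31 in knockout pools, against 2.12, 1.10 and 1.36 in control pools. Every knockout pool lay above every control pool, and pools 2 and 3 of the controls were near the input level. The log2 change of 0.88 (SE 0.48, edgeR adjusted p = 0.087) did not pass, and it stood 1.89 above the median of all listed peaks. With TMM it was 1.68 and passed.

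The second question was whether enrichment moved through the IP reads or the input reads. By edgeR's test the IP level itself fell at 6 peaks (64.8% of all listed peaks) and rose at 1 (2.92%), with a median log2 change of -0.59, which was 0.17 with TMM. The falls were in Eif5, Ddx19b, Cpsf2, Ddx20 and both Rbm4b peaks, and Eif4g3 was the rise; with TMM the IP changes of Ddx20 and both Rbm4b peaks were above 0. Of the 10 peaks whose enrichment fell, 6 also fell in IP. The other 4 did not pass in IP, with log2 changes of -0.15 in Ccnl2, -0.25 in Tnrc6a, -0.68 in Cnot2 and -0.78 in Rbm27. Those of Cnot2 and Rbm27 (SE 0.40 and 0.41) were larger in size than the called falls of Ddx20 (-0.64) and Rbm4b (-0.59 and -0.60). With TMM the 4 changes were 0.61, 0.49, 0.04 and -0.01.

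Eif5 had the smallest p of the falls in IP. With TMM none of the 6 falls passed, and the log2 changes were -0.26 in Eif5, -0.28 in Ddx19b and -0.16 in Cpsf2. Its IP level was 27.1, 22.7 and 19.5 RPM in knockout pools, against 28.1, 59.7 and 53.7 RPM in control pools. Control pool 1 was close to knockout pool 1, yet the groups did not overlap, and the log2 change was -1.03 (edgeR adjusted p = 0.0030), called in all 6 fits that leave out 1 pool. Ddx19b had 15.1, 10.4 and 8.83 RPM in knockout IP, against 15.9, 28.6 and 25.1 RPM in control IP, a log2 change of -1.02 (edgeR adjusted p = 0.0083) that was lost without knockout pool 2 or 3 or control pool 2 (-1.27 to -0.84 over the 6 fits). Its groups did not overlap. Cpsf2 had 14.9, 9.31 and 8.39 RPM in knockout IP, against 12.8, 25.3 and 22.7 RPM in control IP, and these groups overlapped through control pool 1 (log2 change -0.90, edgeR adjusted p = 0.020). That call was lost without knockout pool 2 or 3 or control pool 2 or 3 (-1.20 to -0.71 over the 6 fits). Eif4g3 had 19.6, 18.3 and 14.9 RPM in knockout IP, against 14.3, 8.13 and 8.19 RPM in control IP. Its knockout pools were all higher, with a log2 change of 0.79 (edgeR adjusted p = 0.032). Of the fits that leave out 1 pool, only the one without control pool 1 called the IP changes of Eif4g3 (log2 change 0.65 to 1.11 over the 6 fits), Ddx20 (-0.94 to -0.43) and the Rbm4b peaks (-0.83 to -0.40 and -0.84 to -0.40).

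Input, a measure of the RNA level in the same region, rose at 2 peaks (6.00% of all listed peaks) and fell at 0 (0.649%). The count of 0 falls held at an unadjusted p under 0.05 and in DESeq2 with the same totals, while 7 peaks were higher at an unadjusted p under 0.05 (16.8% of all listed peaks). The median log2 change in input was 0.61 over the 15 peaks, against 0.22 over all listed peaks, and with TMM 0.40 against 0.01. Input was above 0 on this scale at 13 of the 15 peaks and at 885 of all 1233 listed peaks, and Srsf5 and Ddx3x among the 13 were below 0 with TMM. At 6 of the 15 peaks all knockout input pools lay above all control input pools (21.9% of all listed peaks) and at 0 below (4.79%).

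The rises were in Ccnl2 and Ddx20. Ccnl2 had 13.2, 13.7 and 14.6 RPM in knockout input, against 7.49, 7.99 and 6.36 RPM in control input. These groups were far apart for their spread, with means of 13.8 ± 0.718 RPM in knockout and 7.28 ± 0.837 RPM in control (SD, n = 3 each), a log2 change of 0.92 (edgeR adjusted p = 0.042), while in IP of the same peak the log2 difference was -0.15 (edgeR adjusted p = 0.61), or 0.61 with TMM. Ddx20 had 3.67, 3.68 and 3.66 RPM in knockout input, against 1.54, 1.49 and 2.08 RPM in control input, a log2 change of 1.11 (edgeR adjusted p = 0.027). Its IP was 25.7, 22.1 and 24.6 RPM in knockout pools, against 20.4, 48.2 and 44.4 RPM in control pools (log2 change -0.64, or 0.16 with TMM, edgeR adjusted p = 0.048), with control pool 1 below all knockout pools. Both input calls were lost without any 1 of the knockout pools or control pool 2, and that of Ccnl2 also without control pool 3, with log2 changes of 1.02 to 1.27 in Ddx20 and 0.84 to 1.0 in Ccnl2 over the 6 fits.

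Tnrc6a had 16.9, 16.9 and 21.3 RPM in knockout input, against 11.8, 12.4 and 10.9 RPM in control input, without overlap and short of the threshold (log2 change 0.65, edgeR adjusted p = 0.16). Cnot2 had the same log2 difference in input as Ddx20 (1.11, edgeR adjusted p = 0.15) on much thinner and overlapping counts. In Srsf5, by contrast, input was level between the groups (log2 change 0.04, edgeR adjusted p = 0.96), and IP was 31.4, 31.4 and 39.0 RPM in knockout pools, against 42.2, 56.4 and 51.3 RPM in control pools. All its knockout IP pools were lower, with a log2 change of -0.56 (edgeR adjusted p = 0.073) that did not pass and was 0.18 with TMM.

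**Figure D2:**
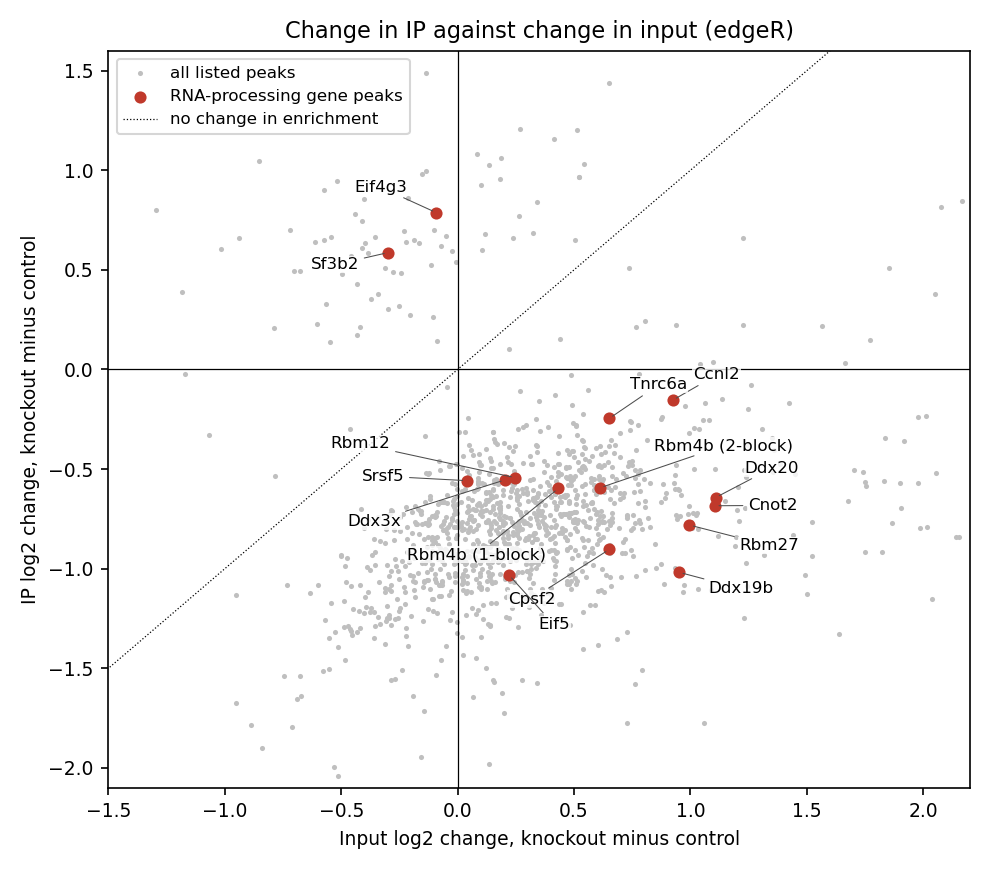
Log2 change in IP (vertical axis) against log2 change in input (horizontal axis), knockout minus control by edgeR with total reads as library sizes, for the 15 peaks (large points) and all listed peaks (small points; 17 lie outside the axes). The dotted diagonal is equal change in both; Eif4g3 and Sf3b2 lie above it and the other 13 peaks below it, with Ddx20, Cnot2, Rbm27, Ddx19b and Ccnl2 farthest to the right.

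The location of the peaks was set beside that of all listed peaks, using GENCODE M21 at the middle of the spliced peak. Of the 15 midpoints 9 lay in coding sequence (60.0%, against 44.0% of all placed peaks), 5 in 3′UTRs (33.3%, against 47.2%) and 1, in Ccnl2, in a noncoding transcript. The last exon held 11 (73.3%, against 76.8%). Of the 14 peaks in coding transcripts, 9 were centred within 400 nt of the last coding base (64.3%, against 50.3%). Those were the peaks of Ddx20, Rbm4b, Srsf5, Ddx3x, Rbm27, Cpsf2, Ddx19b and Eif5. Tnrc6a, Rbm12, Eif4g3 and Sf3b2 were centred more than 400 nt upstream and Cnot2 downstream.

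**Figure D3:**
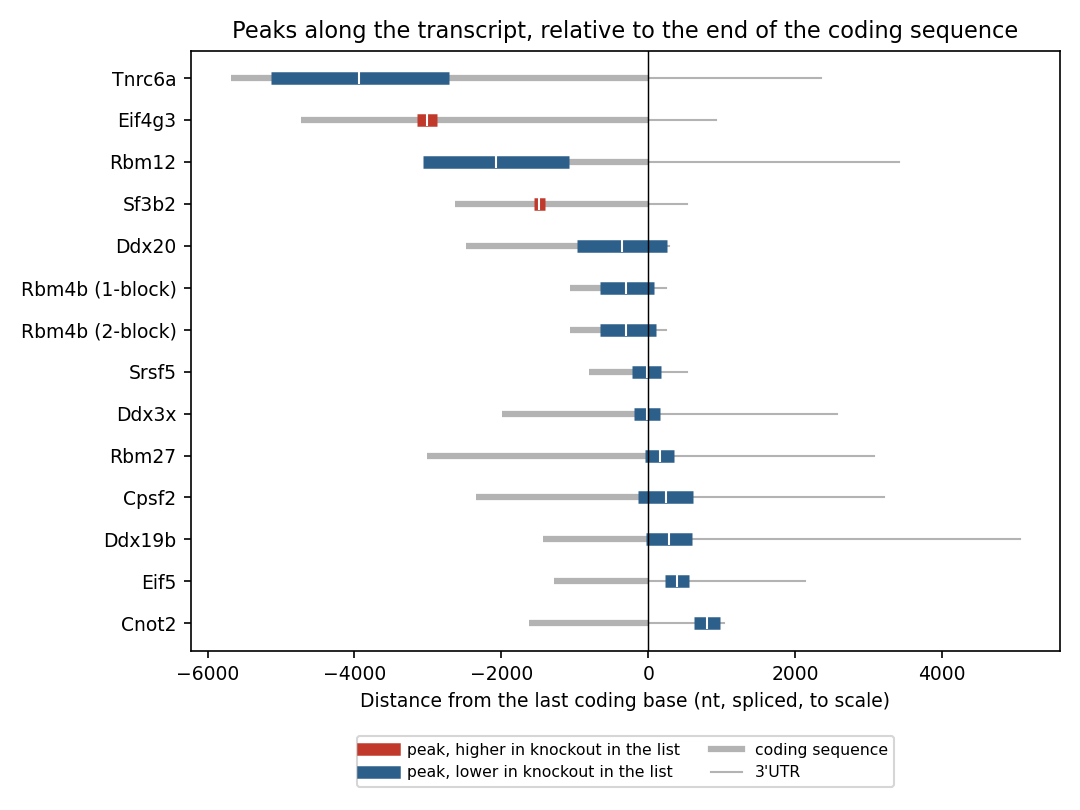
The 14 peaks in coding transcripts, drawn to scale on the spliced transcript as distance in nt from the last coding base (0). Thick grey lines are coding sequence, thin grey lines 3′UTR, blue bars peaks listed as lower in knockout and red bars peaks listed as higher, with a white tick at the midpoint; both red bars lie well inside the coding sequence.

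Exon length separated the listed directions among these genes, a pattern noticed in the data and given as a description. The 13 peaks listed as lower had their midpoints in exons of 784 to 6415 nt, with a median of 2224 nt, and all 13 exons were at least 400 nt long. Both peaks listed as higher were in short internal exons, 138 nt in Sf3b2 and 247 nt in Eif4g3. Over the whole list 97.8% of 1142 placed lower peaks were in exons of at least 400 nt, against 68.2% of the 88 higher peaks. Internal exons under 400 nt held 1.6% of the lower peaks and 30.7% of the higher peaks. The members thus follow a difference seen across the list.

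**Figure D4:**
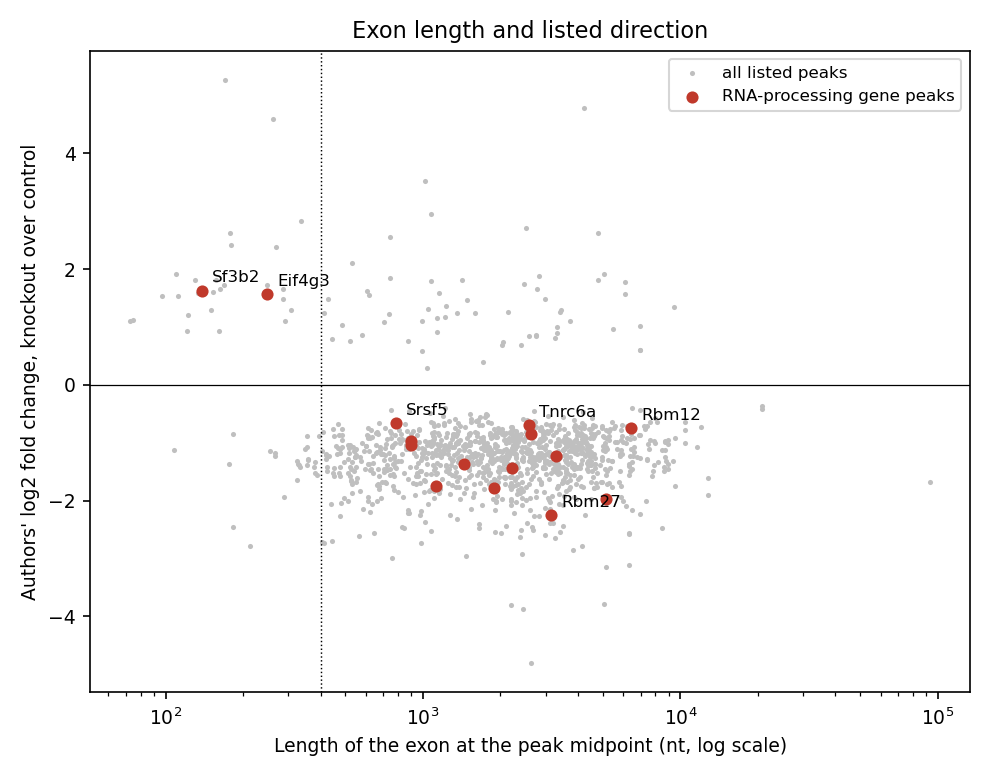
Authors' log2 fold change, knockout over control (vertical axis), against the length in nt of the exon at the peak midpoint (log axis) for the 15 peaks (large points) and all placed listed peaks (small points). The dotted line marks 400 nt; Sf3b2 and Eif4g3 lie left of it and above 0, the other members right of it and below 0.

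The motifs were counted next. Searched on the transcript strand, the whole spliced peak held DRACH in all 15 peaks (99.7% of all listed peaks), and the 100 nt around the midpoint held it in 14 (93.3%, against 93.4%), the exception being Rbm12. GGAC, a core of the motif that forms part of DRACH when any base but G follows, occurred in 12 of the whole peaks (80.0%, against 92.4%). The 3 without it were Eif4g3, Sf3b2 and Ddx3x. The median number of DRACH matches per 100 nt of peak was 1.4 in the 2 peaks listed as higher and 2.38 in the 13 listed as lower, against 2.01 and 2.38 over all listed higher and lower peaks. Tnrc6a held the most matches, 62 DRACH and 10 GGAC in 2458 nt, and Sf3b2 the fewest, 2 DRACH in 151 nt. In the sequences printed above, the match nearest the midpoint is GGACA in both Ddx19b and Cnot2, and begins with GAAC in Ddx20, Tnrc6a, Ccnl2, Eif5 and Cpsf2.

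**Figure D5:**
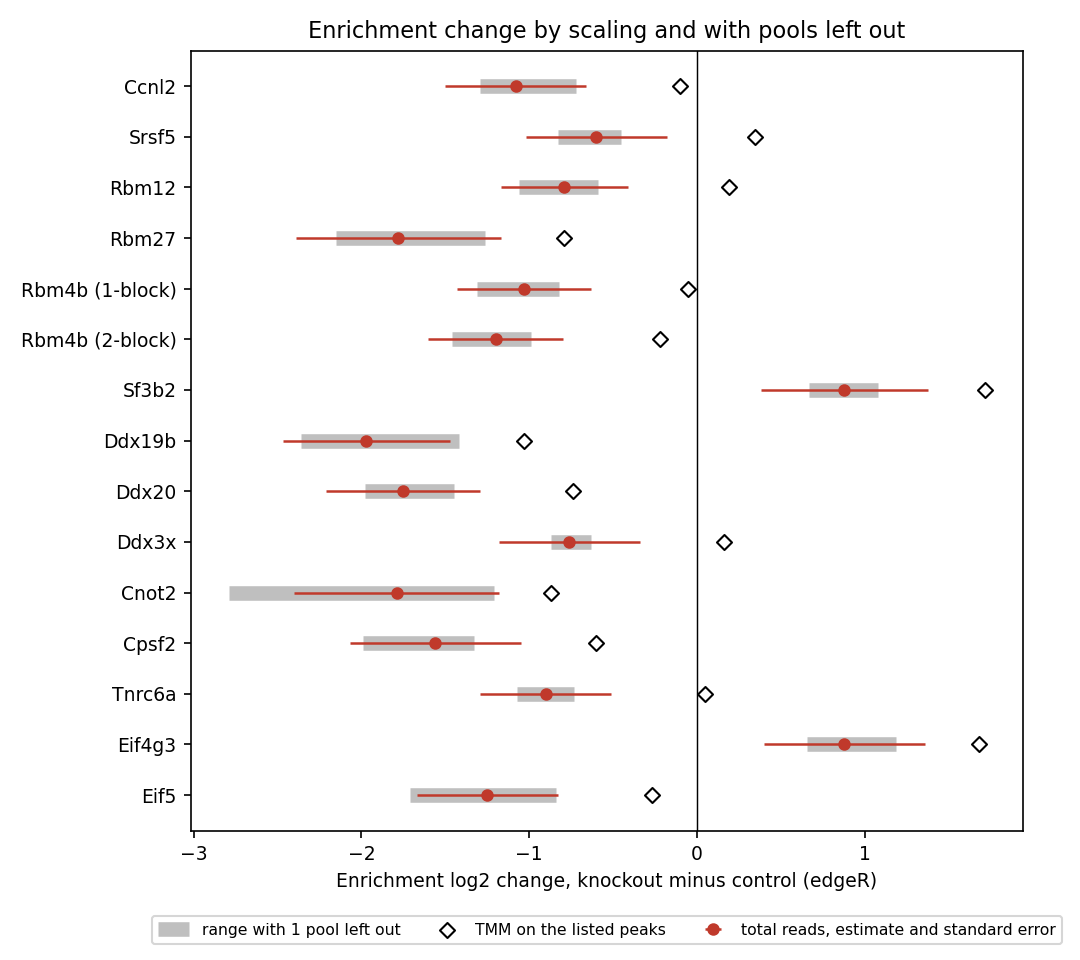
Enrichment log2 change (knockout minus control, edgeR) of each peak with total reads as library sizes (points with standard error bars), over the 6 fits that leave out 1 pool (grey bars) and with TMM scaling over the listed peaks (diamonds). The grey bars keep the sign of the point at all 15 peaks, while the diamonds lie near 1 log2 unit to the right and cross 0 in Srsf5, Rbm12, Ddx3x and Tnrc6a.

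Of 126 other genes of splicing, export, decay and translation, 14 had a listed peak each, among them Dcp2, Dicer1, G3bp2, Gspt1, Larp1, Larp4b, Matr3, Mbnl1, Ptbp3, Rc3h2, Smg1, Srpk2 and Syncrip. The authors listed 13 as lower and 1 as higher. Enrichment fell at 4 and rose at 1 by edgeR's test (background 55.6% and 2.27%), with a median log2 change of -0.85, which was 0.11 with TMM. DESeq2 with the same totals called 7 falls and 0 rises, with 0 higher at an unadjusted p under 0.05, and TMM called 0 in either direction. IP fell at 7 (background 64.8%; 0 with TMM) and rose at 0 (2.92%), where no peak was higher at an unadjusted p under 0.05 and DESeq2 with the same totals also called 0. Input rose at 1, in Mbnl1 (background 6.00%), and at 0 with TMM. It fell at 0 (background 0.649%), again with none lower at an unadjusted p under 0.05 and 0 by DESeq2 with the same totals.

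The 4 falls were in a kinase and a decapping enzyme of mRNA decay and in splicing regulators. Smg1, the kinase of nonsense-mediated decay, had an enrichment of 3.21 ± 1.10 in knockout and 10.4 ± 2.85 in control pools (SD, n = 3 each; log2 change -1.59, edgeR adjusted p = 0.0057). Dcp2, the catalytic decapping enzyme, had 6.12 ± 2.51 in knockout and 14.01 ± 7.03 in control pools (log2 change -1.12, edgeR adjusted p = 0.023). Ptbp3, a polypyrimidine tract binding protein, had 4.44 ± 1.64 in knockout and 10.3 ± 3.58 in control pools (log2 change -1.32, edgeR adjusted p = 0.0061). These 3 calls and that of Mbnl1 were lost without knockout pool 3, and each but that of Mbnl1 without knockout pool 2. Without control pool 2 those of Dcp2 and Mbnl1 were lost, and without control pool 3 those of Dcp2 and Ptbp3. Over the 6 fits the log2 change was -1.89 to -1.39 in Smg1, -1.62 to -0.83 in Dcp2, -1.58 to -1.05 in Ptbp3 and -2.24 to -1.35 in Mbnl1.

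Mbnl1, a muscleblind splicing regulator, had an enrichment of 1.16 ± 0.567 in knockout and 3.74 ± 1.79 in control pools (log2 change -1.90, edgeR adjusted p = 0.0065). Its input was called higher (log2 change 1.2, edgeR adjusted p = 0.045). That input call was kept without control pool 1 and lost without any other single pool, with changes of 0.73 to 1.45 over the 6 fits. Under TMM scaling the input change was 0.99 and did not pass. Syncrip, also known as hnRNP Q, rose in enrichment, with 5.55 ± 1.58 in knockout and 2.74 ± 1.89 in control pools (log2 change 1.17, edgeR adjusted p = 0.042). Its pools overlapped, and the call was lost without any 1 pool other than control pool 1 (log2 change 0.48 to 1.75 over the 6 fits) and by DESeq2 with the same totals.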

How the data were processed

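MeRIP-seq of islet RNA was analysed from the authors' table of differential peaks. Per the file headers it gives read counts per peak and library, total reads, RPM, the fold ratio of IP over input per pool, a log2 fold change and log10 scores of p and FDR, all as deposited by the authors. Per the submitters' processing notes, fastp 0.19.11, BWA 0.7.12, HOMER 4.9.1 and GRCm38.p6 were used, with no role given; which peak caller and counting were used, and whether strand was kept, is not stated there. The table holds only peaks that the authors called different, so peaks without a difference were not analysed here, and 58 rows without a symbol could not be members. Counts are not split by molecule, so errors cover reads and pools only. Whether the pools share animals is not given, so p-values measure the spread between these pools.

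From the deposited counts, edgeR 4.0.16 in R 4.3.3 fitted 4 groups (knockout and control, IP and input) over all 1233 peaks by quasi-likelihood, with total reads as library sizes and Benjamini-Hochberg adjustment at 0.05. Enrichment is the difference between genotypes of log2 IP minus input. Alternatives were TMM, DESeq2 1.42.0 with its own size factors or the deposited totals, an input minimum, halved counts, a replicate block and leaving out each pool. Peaks were placed on GENCODE M21 transcripts at their spliced midpoint, and DRACH was searched on the transcript strand.

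The members and lists were chosen with earlier results of these data known. Every member is named; values per pool were to be given for the 4 members of each role with the smallest enrichment p, for those listed as higher, with 2 or more peaks, or with a change in IP or input, and for 6 other genes as means, of which 1 is not reported here. Sequences were shown after the values were seen, without Rbm12 and Rbm27.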

Additional observations from a re-analysis of the deposited data

How the results depend on the processing

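Scaling decided most calls of the 15 peaks, since TMM and DESeq2's own size factors centre the listed peaks. With TMM the falls in enrichment numbered 0 (10 with total reads), the rises 1 (0), and the median log2 change was -0.10 (-1.08); with DESeq2's own size factors these were 0, 2 and -0.08. In IP, TMM gave 0 falls, 2 rises and a median of 0.17, and DESeq2's own size factors gave 0, 4 and 0.16, against 6, 1 and -0.59 with total reads. DESeq2 with the deposited totals called 12 falls in enrichment and 9 in IP (770 and 849 of all 1233 listed peaks). Over all listed peaks, enrichment fell at 9 and rose at 39 with TMM, and fell at 17 and rose at 63 with DESeq2's own size factors, against 686 and 28 with total reads. IP of all listed peaks fell at 27 and rose at 75 with TMM, against 799 and 36 with total reads. With DESeq2's own size factors it fell at 47 and rose at 85. Leaving out 1 pool in turn gave 1 to 12 falls and 0 to 1 rises in enrichment, with a median of -1.31 to -0.83, 1 to 11 falls and 0 to 2 rises in IP, with a median of -0.83 to -0.50, and 0 to 3 rises and 0 falls in input, with a median of 0.44 to 0.59. Falls in enrichment numbered 2 without knockout pool 2, 1 without knockout pool 3, 4 without control pool 2 and 2 without control pool 3, and 12 without control pool 1. Over all listed peaks the same fits gave 91, 111, 168, 141 and 976 falls. Halved counts left 1 rise in input (2). Each fit kept 2 or 3 pools a group with 1 shared spread.

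IP and input of 1 number come from the same pool, so the replicate block for enrichment was the pool. That block gave 8 falls (520 of all 1233 listed peaks), without Tnrc6a and the 1-block Rbm4b peak. Across genotypes the labels pair no pools, and deviations of same-numbered libraries, within pools and across genotypes, correlated at -0.34 to 0.10. With the number as a replicate block, IP had 3 falls and input 1 rise (627 and 55 of all 1233 listed peaks). DRACH was found in 100.0% of whole peaks (99.7% of all listed peaks) and in 93.3% of the 100 nt windows (93.4%). GGAC was found in 26.7% of those windows, against 43.7% over all listed peaks.

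Direction reversed for these log2 changes. With TMM, enrichment was 0.19 in Rbm12, 0.047 in Tnrc6a, 0.35 in Srsf5 and 0.16 in Ddx3x; IP was 0.23 in Rbm12, 0.16 in Ddx20, 0.61 in Ccnl2, 0.49 in Tnrc6a, 0.037 in Cnot2, 0.18 in Srsf5, 0.18 and 0.17 in Rbm4b and 0.15 in Ddx3x; input was -0.17 in Srsf5 and -0.0056 in Ddx3x. With DESeq2's own size factors, enrichment was 0.21 in Rbm12, 0.072 in Tnrc6a, 0.38 in Srsf5 and 0.19 in Ddx3x, and IP was 0.21 in Rbm12, 0.14 in Ddx20, 0.60 in Ccnl2, 0.48 in Tnrc6a, 0.023 in Cnot2, 0.17 in Srsf5, 0.17 and 0.16 in Rbm4b and 0.14 in Ddx3x. Input was then -0.21 in Srsf5, -0.028 in Eif5 and -0.042 in Ddx3x. With 1 pool left out, IP of Ccnl2 was lowest at -0.35 without control pool 1 and highest at 0.12 without control pool 3, and was 0.013 without knockout pool 2. Input of Srsf5 was -0.0037 and -0.048 without knockout pools 1 and 2, -0.014 and -0.011 without control pools 1 and 2, and 0.16 without knockout pool 3.

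No other alternative turned a direction. Depth limits Cnot2 most, with 3 input reads in control pool 3. Rbm27, Cpsf2, Ddx19b and Ddx20 come next, with mean input counts of 40.0, 47.33, 50.33 and 51.0.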

Other observations

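The authors' deposited table gives a pair of log2 fold changes for each peak, and they differed in size at some peaks. The differential log2 fold change in the authors' deposited table was -1.78 in Ccnl2, 1.57 in Eif4g3 and 1.63 in Sf3b2. The knockout over control log2 fold change in the authors' deposited table was -1.13, 0.88 and 0.97 at the same peaks, and edgeR's enrichment log2 change was -1.08, 0.88 and 0.88. In Ddx19b they were -1.98 and -2.0 in the authors' deposited table and -1.97 by edgeR. These genes were chosen after their values were seen.

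Odd read counts were far more frequent than even ones. Of the 647 input counts of 30 or less over the whole list, 562 were odd (86.9%), and of the 90 input counts of the 15 peaks 66 were odd, including all 11 of those of 30 or less. The counting step behind this was not given in the sources used here.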
